A study of Homo sapiens with 6 samples.

Results

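The TRIM family is a large set of proteins built on a shared N-terminal tripartite motif, a RING finger followed by B-box zinc fingers and a coiled coil. Most act as ubiquitin ligases, in which the RING finger recruits a ubiquitin-loaded E2 enzyme and the C-terminal domain selects the target. Several members restrict viruses or tune the signalling of RNA and DNA sensors, and the transcripts of a number of them respond to interferon. Others work in chromatin, on microtubules or in muscle and nerve. The genes described here are all protein-coding genes whose symbol is TRIM followed by a number and that had at least 60 reads summed over the 6 libraries. That rule gave 45 genes of 29710 in the read table, including the readthrough genes TRIM6-TRIM34 and TRIM39-RPP21. PML, MID1, MID2 and MEFV are TRIM proteins under other symbols and are given separately below.

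The libraries came from MDA-MB-231 cells, an established line of triple-negative breast cancer, and were sequenced with strand-specific RNA kits. Cells overexpressing SRPK2-FLAG, a tagged kinase of SR splicing factors, made up 3 libraries, and empty-vector cells made up the other 3, each described as biological replicates. The sources used here do not give the promoter of the construct, the time after its introduction or whether either group was 1 clone. The comparison asks which TRIM transcripts differ in level when SRPK2 is raised.

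Assigned reads ranged from 31140537 to 36908878 per library. SRPK2 itself stood at 37.8, 36.7 and 41.1 CPM (counts per 1e6 reads, scaled by TMM factors) with the empty vector and at 213, 248 and 294 CPM with SRPK2. Its log2 fold change was 2.71 (SE 0.10, edgeR adjusted p = 2.94e-08). Markers of the line were high, with VIM at 626 and CD44 at 95.5 FPKM in the controls and the hormone receptor genes ESR1 and PGR at 5 and 14 reads over all 6 libraries. The luminal and epithelial markers listed with these were present, with KRT19 at 99.0, EPCAM at 5.44, ERBB2 at 4.09 and CDH1 at 0.383 FPKM in the controls. Of the leukocyte markers PTPRC, ITGAM and LYZ had 37, 13 and 40 reads in all, and CD14 had 1203 (3.23 FPKM). Of the endothelial markers VWF and TEK had 9 and 20 reads, and PECAM1 and KDR had 731 and 756. Of the fibroblast markers COL3A1 and DCN had 6 and 74 reads, and PDGFRB, LUM and COL1A1 had 415, 622 and 869. The summed level of the leukocyte markers was 3.14 to 3.63 FPKM in the controls and 2.96 to 3.45 FPKM with SRPK2, and that of the endothelial markers 0.88 to 0.98 and 0.86 to 1.08 FPKM. The summed level of the 5 fibroblast markers was 1.37 to 1.49 FPKM in the controls and 1.94 to 2.05 FPKM with SRPK2, with 0 of the 4 tested past the threshold, and its part in the TRIM values was not tested. In bulk RNA, fewer cells of a type and less RNA per cell cannot be told apart. On the first principal component of all tested genes SRPK2 replicate 2 lay at 0.25, between the other SRPK2 libraries (12.4 and 23.0) and control replicate 3 (-3.91).

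None of the 45 TRIM genes passed the test. In edgeR's quasi-likelihood test, adjusted over 16515 genes, 0 of 45 had an adjusted p under 0.05, where 0.454% of all tested genes did. The lowest adjusted p among them was 0.113 (TRIM29). DESeq2 and limma-voom also called 0 of 45. At an unadjusted p under 0.05 there were 9 members in edgeR, 4 in DESeq2 and 9 in limma-voom. Of all 16515 genes 2093 reached that level in DESeq2 and 2894 in limma-voom. The 9 in edgeR were 20.0% of the family, where 17.2% of all tested genes reached that level. Of these, 8 were higher with SRPK2 (9.06% of all genes) and 1 was lower (8.1% of all genes).

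The values leaned to the side of SRPK2, by small amounts. The median log2 fold change of the 45 genes was 0.06, with 33 above 0, while the median over all tested genes was 0.004 and 51.2% of them lay above 0. The size of the lean depends on the scaling. The family's median was 0.0305 after a correction for gene length, 0.0274 with the replicate number as a block as well, and 0.0975 with library size alone, beside medians over all genes of -0.01, -0.01 and 0.04. In 14 members the groups did not overlap, against 20.1% of all tested genes. SRPK2 libraries were above all controls in 13 of these (11.5% of all genes) and below them in 1 (8.69% of all genes). SRPK2 replicate 3 held the highest CPM for 17 members and SRPK2 replicate 1 for 12, while control replicates 1 and 2 held the lowest for 12 and 13. SRPK2 replicate 2 was the highest for 2 members and the lowest for 9. The 95% intervals were narrow for most genes. For 34 of the 45 the whole interval lay within a 1.25-fold change in either direction, for 40 within 1.5-fold and for 44 within 2-fold. TRIM7, at under 1 CPM in every library, was the exception, with a log2 fold change of 0.43 and an interval from -0.21 to 1.06.

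**Figure D1:**
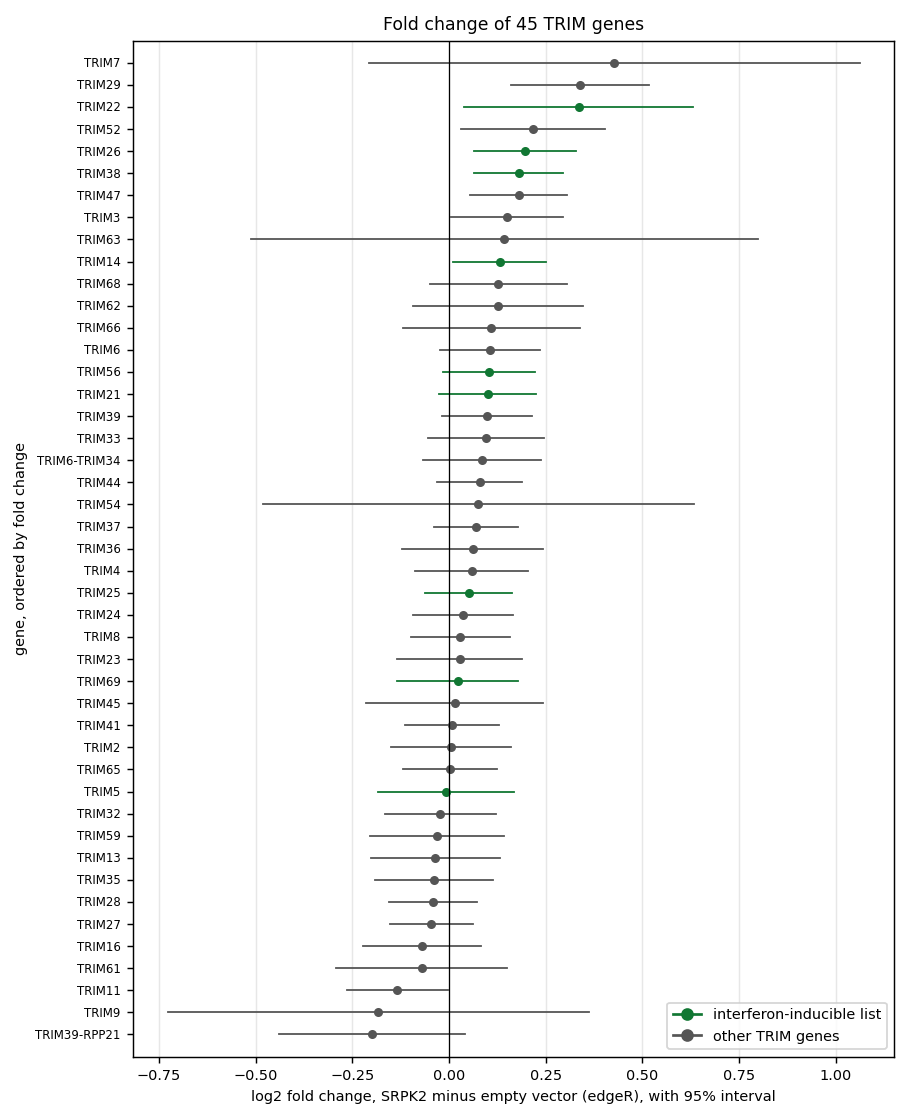
Log2 fold change (SRPK2 minus empty vector, edgeR, horizontal axis) of each of the 45 TRIM genes, ordered by value, with 95% intervals as bars and the interferon-inducible list in green. Points run from -0.20 (TRIM39-RPP21) to 0.43 (TRIM7), and 33 of the 45 lie above 0.

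To compare levels between genes the deposited FPKM values were used, which are scaled per kilobase of gene. In the controls the family spanned from 0.0733 FPKM (TRIM7) to 66.5 FPKM (TRIM28), with a median of 3.24, and 38 members had at least 1 FPKM. TRIM28, the corepressor that KRAB zinc finger proteins bring to chromatin, stood at 66.5 ± 2.43 FPKM (SD, n = 3) and held 22.4% of the summed FPKM of the family. TRIM8, a regulator of cytokine signalling, followed at 32.4 ± 1.83 FPKM (SD, n = 3). Neither overlapped its neighbours in the order in any control library. TRIM39-RPP21 came next at 15.7 ± 1.34 FPKM (SD, n = 3), but it shares exons on the same strand with both TRIM39 and RPP21, so its reads cannot be assigned with certainty. TRIM26 (13.0 ± 0.705 FPKM) and TRIM27 (12.6 ± 0.281 FPKM; SD, n = 3 each) overlapped in the controls. So did TRIM21, TRIM25, TRIM65 and TRIM37, each with its neighbour in the order, at 11, 10.8, 10.6 and 10.1 FPKM.

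**Figure D2:**
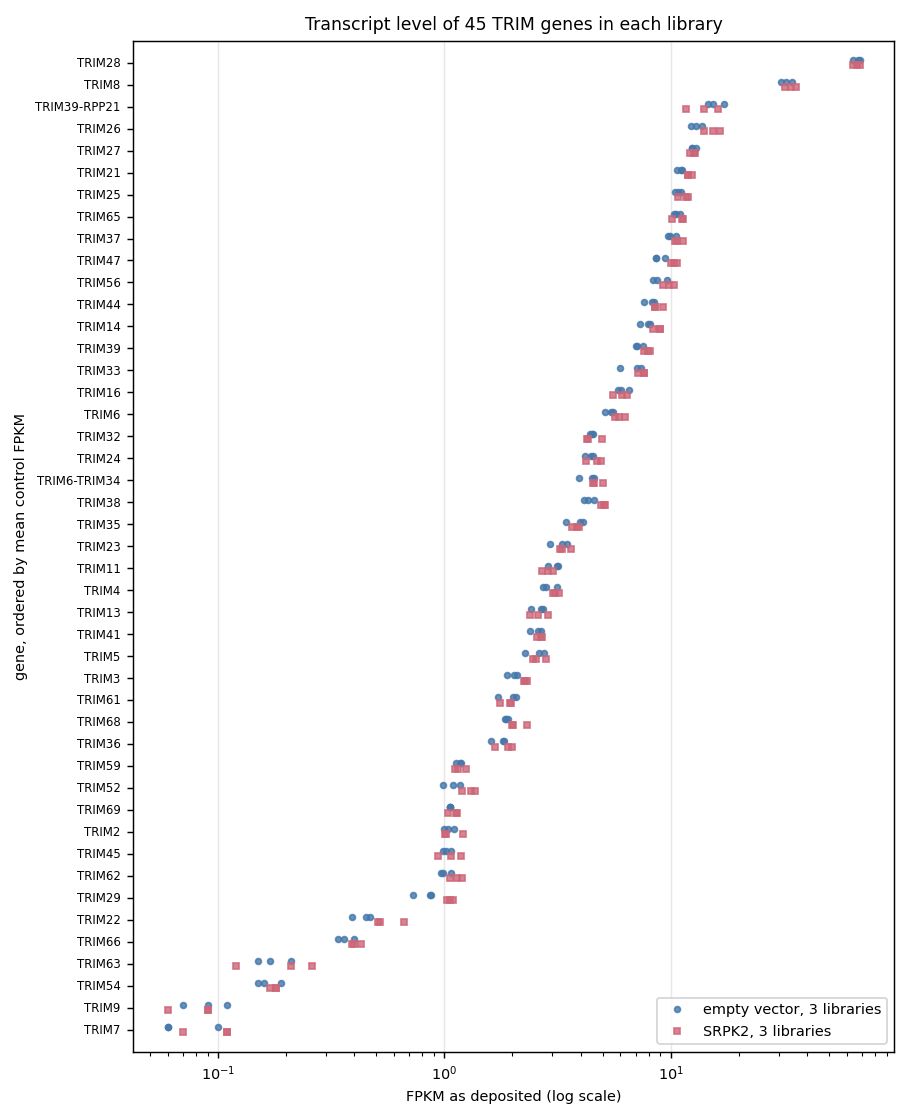
FPKM of the 45 TRIM genes in each library on a log axis, ordered by mean control FPKM, with circles for the 3 empty-vector and squares for the 3 SRPK2 libraries. The family spans from under 0.1 FPKM (TRIM7, TRIM9) to 66.5 FPKM (TRIM28), and for most genes the groups lie close together.

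Below 1 FPKM in the controls were TRIM29, TRIM22, TRIM66, TRIM63, TRIM54, TRIM9 and TRIM7. TRIM63 (MuRF1) and TRIM54 are ligases of striated muscle, and TRIM9 is known from neurons. The member with the fewest reads was TRIM54, with 107 over the 6 libraries. A further 12 protein-coding TRIM genes of the read table fell under the minimum of 60 reads. The closest were TRIM34 and TRIM55, with 42 reads each, and the others had 1 to 17 reads. Among them TRIM46, a microtubule organiser of axons, had 8 reads in SRPK2 replicate 1 and 1 read in each other library.

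A list of 10 TRIM genes whose transcripts are known to respond to interferon had 9 among the 45 (TRIM34, with 42 reads, was under the minimum, but its exons are shared with TRIM6-TRIM34, which had 3543 reads, so reads of TRIM34 may be counted there). None of the 9 passed in edgeR, DESeq2 or limma-voom, with 4 at an unadjusted p under 0.05 in edgeR, all higher with SRPK2 (9.06% of all tested genes). With the replicate number as a block in edgeR, TRIM14, TRIM26, TRIM38 and TRIM56 passed as higher and the rest of the 9 did not. In that fit 3899 of 16515 genes passed, 1753 of them higher. Values lay above 0 in 8 of the 9, with a median of 0.10 on the log2 scale. In 5 of them every SRPK2 library lay above every control, as in 11.5% of all tested genes. The summed FPKM of the 9 was 60.3, 58.2 and 61.2 in the controls and 67.5, 63.4 and 69.4 with SRPK2. SRPK2 replicate 2 was the lowest of its group and still above the controls. The other 36 members had a median of 0.05, with 25 values above 0. The difference between these sets was not tested.

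Of the 9, 5 hold the core letters of the interferon-stimulated response element (ISRE) near their start. TRIM22, also of the 9, could not be searched, since no promoter window was matched for it. TRIM25, TRIM38 and TRIM56 had a window and did not hold the letters. The letters searched were GAAANNGAAA on either strand, in RefSeq windows from 250 bases before to 50 after each start (GRCh38.p14). Of the 45 genes 34 had a window and 8 held a match. Over all genes with a window 4.38% held one, and over all windows 3.57%. The core letters of the gamma-activated site (GAS), TTCNNNGAA, were also searched in these windows. Of the 34 genes 4 held them, where 9.38% of all genes with a window did. The 4 were TRIM2, TRIM3, TRIM7 and TRIM16, which are not on the interferon list. A match describes the letters and does not show a bound site. The stretches below are shown because they belong to the interferon list, along with TRIM44, which is not on it. They are written 5′ to 3′ on the strand of the gene, with the ISRE core in capitals, and the 2 overlapping matches of TRIM26 and of TRIM21 run together.
TRIM26: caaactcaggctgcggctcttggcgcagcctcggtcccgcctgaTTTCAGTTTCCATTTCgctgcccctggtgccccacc
TRIM14: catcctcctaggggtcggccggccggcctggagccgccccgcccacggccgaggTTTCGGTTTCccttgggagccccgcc
TRIM5: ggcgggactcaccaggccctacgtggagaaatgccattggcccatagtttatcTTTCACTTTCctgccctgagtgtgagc
TRIM69: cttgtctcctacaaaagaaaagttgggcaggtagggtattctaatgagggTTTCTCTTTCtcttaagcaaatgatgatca
TRIM21: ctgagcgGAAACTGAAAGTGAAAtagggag
TRIM44: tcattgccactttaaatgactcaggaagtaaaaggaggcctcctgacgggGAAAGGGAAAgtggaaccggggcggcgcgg

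They lie at chr6:30213565-30213644 (TRIM26, minus strand), chr9:98119223-98119302 (TRIM14, minus), chr11:5685075-5685154 (TRIM5, minus), chr15:44736416-44736495 (TRIM69, plus), chr11:4393663-4393692 (TRIM21, minus) and chr11:35662690-35662769 (TRIM44, plus). Counted from the start site, with negative positions before it, the cores begin at -26 (TRIM14), -27 (TRIM5), -35 (TRIM44) and -62 (TRIM69). Those of TRIM26 begin at -194 and -188 and those of TRIM21 at 18 and 24, inside the transcript. TRIM2 and TRIM16 also held an ISRE core, at -217 and -80. The 8 genes with an ISRE core had log2 fold changes from -0.07 to 0.20 with a median of 0.05. The 26 with a window and no ISRE core ran from -0.20 to 0.43 with a median of 0.09. No window was matched for TRIM4, TRIM8, TRIM11, TRIM13, TRIM22, TRIM24, TRIM27, TRIM28, TRIM29, TRIM35 and TRIM45.

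Among the 9, TRIM26, a regulator of IRF3 signalling from the MHC region (ENSG00000234127.9, chromosome 6 from 30184455 to 30213427), had groups that did not overlap. Its level was 67.3, 61.1 and 62.3 CPM with the empty vector and 73.8, 67.9 and 76.9 CPM with SRPK2. The lowest SRPK2 library, replicate 2, lay just above the highest control. The log2 fold change was 0.20 (SE 0.06, 95% interval 0.07 to 0.33, edgeR adjusted p = 0.176). Without SRPK2 replicate 2 it was 0.25 and passed (edgeR adjusted p = 0.0264), in a fit where 1403 of 16772 genes passed. With any other library left out TRIM26 did not pass (edgeR adjusted p from 0.211 to 0.515).

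TRIM38, which restrains Toll-like receptor signalling and acts on RNA and DNA sensing (ENSG00000112343.11, chromosome 6 from 25962802 to 25991226), stood at 43.5, 45.9 and 47.1 CPM in the controls and at 52.9, 51.2 and 50.7 CPM with SRPK2. The groups were apart, with a log2 fold change of 0.18 (SE 0.05, interval 0.07 to 0.29, edgeR adjusted p = 0.164). TRIM22, an antiviral ligase of the chromosome 11 cluster (ENSG00000132274.16, from 5689689 to 5737089), was sparse. It had 2.99, 3.14 and 2.57 CPM in the controls and 3.35, 3.40 and 4.15 CPM with SRPK2, replicate 3 being the highest. Its log2 fold change was 0.34 (SE 0.14, interval 0.04 to 0.63, edgeR adjusted p = 0.244), and 0.22 to 0.39 with single libraries left out. TRIM14, an adaptor of MAVS signalling that lacks a RING finger, had 49.9, 45.3 and 47.8 CPM against 53.7, 50.5 and 52.5 CPM. These groups touched without overlapping, and the log2 fold change was 0.13 (SE 0.06, edgeR adjusted p = 0.254).

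TRIM21, the cytosolic antibody receptor, was at 23.2, 24.4 and 23.7 CPM in the controls and 26.4, 25.5 and 24.5 CPM with SRPK2 (log2 fold change 0.10, SE 0.06, edgeR adjusted p = 0.382). TRIM56, a ligase of antiviral sensing pathways, had 109, 106 and 117 CPM against 120.3, 114 and 122 CPM, and control replicate 3 overlapped the SRPK2 group (0.10, SE 0.05, adjusted p = 0.344). TRIM25, which ubiquitinates the RNA sensor RIG-I, had 155, 148 and 146 CPM against 159, 148 and 157 CPM. Its groups overlapped, with a log2 fold change of 0.05 and an interval from -0.06 to 0.16. TRIM69 (0.02, interval -0.13 to 0.18) and the retroviral restriction factor TRIM5 (-0.01, interval -0.18 to 0.17) lay nearest to 0. TRIM5 had 13.7, 16.7 and 15.4 CPM in the controls and 14.9, 14.6 and 16.0 CPM with SRPK2, so the controls enclosed the SRPK2 values.

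**Figure D3:**
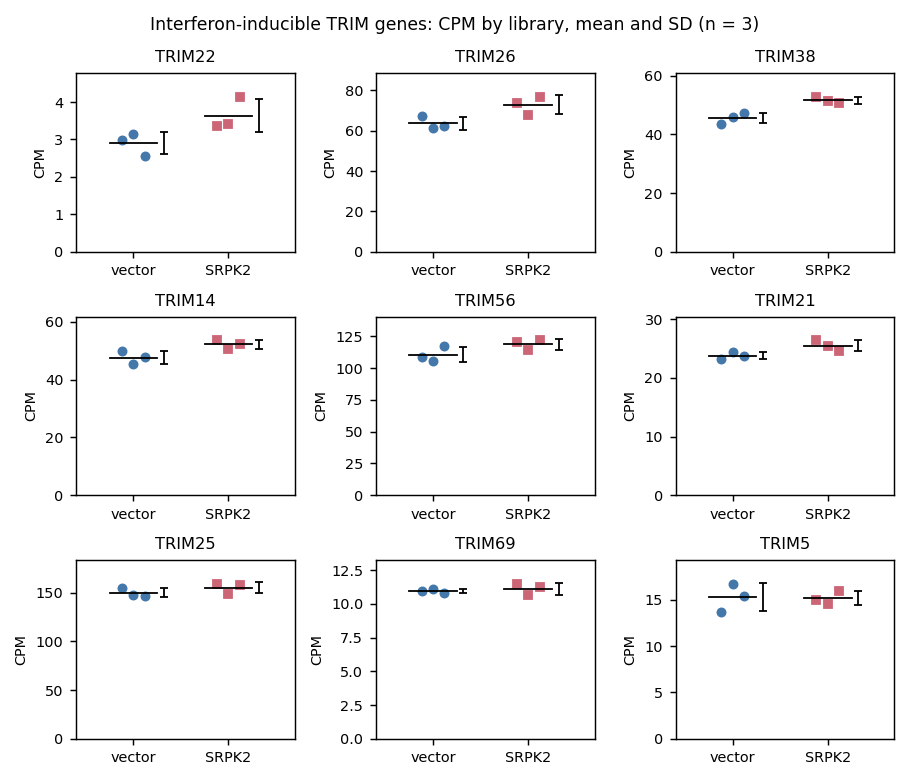
CPM of the 9 interferon-inducible TRIM genes in each library (circles empty vector, squares SRPK2), with lines at the means and bars of 1 SD (n = 3), each vertical axis from 0. TRIM22, TRIM26, TRIM38, TRIM14 and TRIM21 show SRPK2 libraries above all controls, while TRIM56, TRIM25, TRIM69 and TRIM5 overlap.

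Outside the interferon list the lowest adjusted p belonged to TRIM29, which lacks a RING finger and is known from basal epithelia (ENSG00000137699.17, chromosome 11 from 120111275 to 120185529). It stood at 9.62, 8.32 and 9.54 CPM in the controls and at 11.7, 12.1 and 11.04 CPM with SRPK2, and all 3 SRPK2 libraries were above the controls. The log2 fold change was 0.34 (SE 0.08, interval 0.16 to 0.52), a 1.26-fold difference in means. The edgeR adjusted p was 0.113, and 0.0104 when genes with low counts were not filtered out. With any 1 library left out the edgeR adjusted p lay between 0.0524 and 0.358.

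TRIM52, a RING protein with no further C-terminal domain, had 7.31, 8.10 and 8.39 CPM against 9.45, 8.69 and 9.52 CPM (log2 fold change 0.22, SE 0.09, edgeR adjusted p = 0.238). Its groups were apart by less than the spread within either. It lies head to head with the lncRNA TRIM52-AS1, which had a log2 fold change of -0.13 (SE 0.10). TRIM47, a PRY-SPRY ligase, had 33.4, 30.7 and 29.8 CPM against 35.8, 34.8 and 35.8 CPM (0.18, SE 0.06, edgeR adjusted p = 0.191). Its genomic neighbour TRIM65, which acts on the RNA sensor MDA5, had 46.2 ± 0.938 and 46.3 ± 2.53 CPM (SD, n = 3 each), with a log2 fold change of 0.003 and an interval from -0.12 to 0.12.

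Values below 0 were as small. TRIM11, a PRY-SPRY ligase (chromosome 1 from 228393673 to 228406840), was the only member whose SRPK2 libraries were all below the controls, at 30.1, 27.5 and 29.2 CPM against 26.7, 25.2 and 27.2 CPM. Its log2 fold change was -0.13 (SE 0.06, interval -0.26 to -0.0039, edgeR adjusted p = 0.279). TRIM39-RPP21 had the lowest value, -0.20 (SE 0.11, edgeR adjusted p = 0.362). It stood at 29.1, 33.05 and 27.1 CPM in the controls and 26.3, 30.4 and 21.2 CPM with SRPK2, and the groups overlapped. Without SRPK2 replicate 2 it was -0.33 and passed (edgeR adjusted p = 0.0428), as did 1403 of 16772 genes. With any other library left out it did not pass (edgeR adjusted p from 0.261 to 0.813). The genes that TRIM39-RPP21 overlaps had values on the other side of 0 in the main fit. TRIM39 was at 0.10 (SE 0.05, edgeR adjusted p = 0.360) and RPP21, a ribonuclease P subunit, at 0.51 (SE 0.18, edgeR adjusted p = 0.204). How reads were divided among the 3 is not known, so none of these values stands alone. TRIM61 (-0.07, interval -0.29 to 0.15), TRIM16 (-0.07, interval -0.22 to 0.08) and TRIM27 (-0.05, interval -0.15 to 0.06) overlapped between groups. TRIM16, which lacks a RING finger, has the transcribed pseudogene TRIM16L as a close copy, at -0.01 (SE 0.06), so reads may be split between them.

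By structural class, sorted on the C-terminal domain, 0 members passed in any class. The 19 PRY-SPRY genes, the class with most antiviral members, had a median log2 fold change of 0.10 with 15 values above 0. TRIM35, TRIM41, TRIM4 and TRIM62, not described above, had -0.04, 0.01, 0.06 and 0.13. In 8 of the 19 the SRPK2 libraries lay above all controls (11.5% of all tested genes) and in 1, TRIM11, below them (8.69%). The 4 PHD-bromodomain genes, readers of chromatin, had a median of 0.07. TRIM28 stood at 330.5, 311 and 317 CPM in the controls and 323, 303 and 306 CPM with SRPK2, a log2 fold change of -0.04 with an interval from -0.15 to 0.07. Its relatives TRIM24, a coactivator of nuclear receptors, and TRIM33, a partner of SMAD signalling, had 0.04 and 0.10. TRIM33 in control replicate 1, at 64.6 CPM, lay below the other 5 libraries (76.3 to 80.6 CPM). TRIM66, the fourth of the class, had 0.11.

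The 3 NHL-domain genes were TRIM32 (-0.02, interval -0.17 to 0.12), mutated in a limb-girdle muscular dystrophy, TRIM2 (0.01) and TRIM3 (0.15, SE 0.07, edgeR adjusted p = 0.273). TRIM3 had 15.8, 14.4 and 15.1 CPM against 17.3, 16.9 and 16.1 CPM, with no overlap. The membrane-anchored TRIM13, an endoplasmic reticulum ligase, and TRIM59 had -0.04 and -0.03. TRIM37, a MATH-domain ligase that controls centriole assembly and is mutated in mulibrey nanism, had 61.2, 60.2 and 63.3 CPM against 64.3, 63.2 and 66.4 CPM (0.07, interval -0.04 to 0.18). TRIM23, with an ARF domain, and TRIM45, with a filamin domain, had 0.03 and 0.02. Of the microtubule-linked COS class TRIM36 had 0.06 (interval -0.12 to 0.24), and TRIM9, TRIM54 and TRIM63 were under 2 CPM with intervals wider than 1 log2 unit.

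TRIM44, the remaining gene without a RING finger, had 121, 113 and 120.5 CPM against 122, 123 and 129 CPM (log2 fold change 0.08, SE 0.05, edgeR adjusted p = 0.426). The groups lay within 2 CPM of each other at their closest. TRIM8 belongs to another class, the one of TRIM52 with no further C-terminal domain. It had 193, 174 and 177 CPM against 196, 177 and 181 CPM (0.03, interval -0.10 to 0.16), with control replicate 1 close to the highest SRPK2 library.

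Chromosome 11 carries 10 of the 45 genes. In its cluster TRIM6 (from 5596109 to 5612958) and TRIM5 (from 5663557 to 5938619) lie on either side of TRIM34, and TRIM22 lies within the span of TRIM5, with TRIM21 and TRIM68 at lower positions on the same arm. The log2 fold changes of TRIM6, TRIM5, TRIM22, TRIM21 and TRIM68 were 0.11, -0.01, 0.34, 0.10 and 0.13. TRIM6-TRIM34 shares exons with both TRIM6 and TRIM34 and had 0.09 (SE 0.07). In TRIM6 and TRIM68 the groups did not overlap, at 23.8 ± 0.929 against 25.6 ± 0.927 CPM and 8.94 ± 0.274 against 9.75 ± 0.685 CPM (SD, n = 3 each), and neither passed (edgeR adjusted p = 0.367 and 0.424). Positions are those of GENCODE 29 on GRCh38.

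The TRIM genes under other symbols did not pass either. For PML, the organiser of nuclear bodies, the log2 difference was 0.15 (SE 0.07, edgeR adjusted p = 0.271), and the microtubule ligases MID1 and MID2 had 0.10 and 0.05. MEFV had 1 read in all. Ubiquitin and E1 genes, which supply every ligase, had 0 of 6 past the threshold and a median of -0.09. UBB, the highest by FPKM, had -0.14 (SE 0.08). Of 12 E2 family genes that work with RING ligases, among them the E2 variants UBE2V1 and UBE2V2, 0 passed. All 12 log2 fold changes were below 0, with a median of -0.09. That sign depends on the scaling, since by mean FPKM UBE2V1 (58.7 to 59.6), UBE2E1 (42.5 to 42.7) and UBE2D4 (4.67 to 4.73) were higher with SRPK2. UBE2V1, the highest by FPKM, had -0.01 (SE 0.05). Of 10 partners of TRIM28 in silencing 0 passed, with a median of 0.08, and CBX3, the highest by FPKM, had -0.11 (SE 0.06).

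The sensors that several TRIM ligases act on did change. Of 11 genes of RIG-I and MDA5 signalling 3 rose and 0 fell, where 0.381% of all tested genes rose and 0.0727% fell. RIG-I (DDX58), MDA5 (IFIH1) and LGP2 (DHX58), the 3 RNA helicases of the list, rose by log2 fold changes of 0.40, 0.42 and 0.50 (SE 0.05, 0.06 and 0.07, edgeR adjusted p = 0.00450, 0.00425 and 0.00406). DDX58 went from 136 to 179 CPM, while its ligases TRIM25 and RNF135 had 0.05 and -0.07. Of 30 interferon-stimulated genes outside the family 12 rose and 0 fell, against the same 0.381% and 0.0727% of all tested genes, with a median of 0.37. OAS1, an antiviral enzyme, rose by 0.81, followed among those that passed by RSAD2, XAF1 and MX1 at 0.58, 0.56 and 0.52. Values of the 30 ran from -0.07 (IFI35) to 0.81, with 27 above 0 and 3 below, so the TRIM values lie within their range. The interferon-stimulated genes were known from earlier work on the same libraries and are given as a scale for the TRIM values. Whether the lists differ was not tested.

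**Figure D4:**
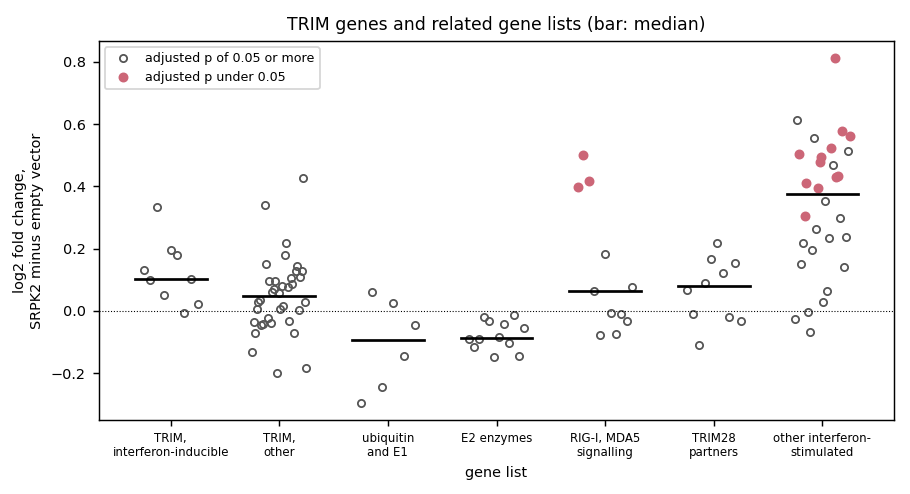
Log2 fold change (SRPK2 minus empty vector) of each tested gene in the TRIM family and in related lists, with filled points for an edgeR adjusted p under 0.05, open points for the rest and a bar at each median. Filled points appear for 3 genes of RIG-I and MDA5 signalling and 12 of the other interferon-stimulated genes, and for 0 TRIM genes.

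Gene totals do not show protein level, ligase activity or exon use. The labels do not say how the replicates were grown. The p-values weigh the difference between groups against the spread between these libraries, whatever its source.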

How the data were processed

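RNA sequencing libraries of MDA-MB-231 cells (3 empty vector, 3 SRPK2) were grouped by their titles. The authors deposited whole-number counts per gene (29710 genes, not normalized) and FPKM values rounded to 2 decimals. The submitters' processing notes name bcl2fastq, FastQC, HISAT2 and GRCh38. The sources used here do not give the counting tool, annotation or strand setting, so overlapping and antisense genes are uncertain. From the counts, edgeR 4.0.16 (R 4.3.3, TMM, filterByExpr, glmQLFit, glmQLFTest, two-sided) was fitted on 16515 genes with the group as the only term, and Benjamini-Hochberg adjustment covered all of them, with a threshold of 0.05. SEs were obtained by dividing the log2 fold change by the root of F, and 95% intervals use the test's degrees of freedom. All 45 genes were tested and matched GENCODE 29. Promoter windows are RefSeq's.

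The members and lists were chosen with earlier results of these data known. Named were SRPK2, members past the threshold, the interferon list, the 6 highest by FPKM, the 6 largest rises and falls (mean log2 CPM 1 or more), the most abundant of each class, and up to 4 genes past the threshold of each related list or else its most abundant. Other members are given after their values were seen. Alternatives were RLE factors, library size alone, no filter, a CPM filter (mean of 5), DESeq2 1.42.0, limma-voom and limma 3.58.1 on log2 FPKM with 1 or 0.1 added (genes of mean FPKM 0.5 and over, or unfiltered), a replicate block, a loess length correction (span 0.3), each library left out, and a minimum of 600 reads. The fit was tested on simulated data. It called 58% of simulated 1.25-fold changes, 74% of 1.5-fold, 90% of 2-fold and 100% of 4-fold, so small changes can be missed. Figures used Python 3.11.15 and matplotlib 3.10.9.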

Additional observations from a re-analysis of the deposited data

How the results depend on the processing

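The count of 0 TRIM genes past the threshold held with RLE factors, library size alone, a mean CPM of at least 5, DESeq2, limma-voom, limma on FPKM in its 3 forms, the length correction and a minimum of 600 reads. It was 1 (TRIM29) with no filter, and 0 to 2 with single libraries left out, the 2 being TRIM26 and TRIM39-RPP21 without SRPK2 replicate 2. Over all genes the count of 75 became 997 with no filter, 153 in DESeq2, 18 in limma on unfiltered FPKM and 27 to 1403 with single libraries left out (1403 without SRPK2 replicate 2, 27 to 46 without any other). The labels do not say that replicate numbers mark a shared batch, and the deviations of same-numbered libraries correlated at 0.08, 0.23 and 0.17, not all over 0.1, though each of the 6 libraries correlated best with its own number. With the replicate number as a block 9 of 45 TRIM genes passed (7 higher, 2 lower), beside 3899 of 16515 genes in all (1753 higher, 2146 lower). The 7 were TRIM14, TRIM26, TRIM29, TRIM38, TRIM44, TRIM47 and TRIM56, and the 2 were TRIM11 and TRIM39-RPP21. With the block and the length correction 9 of 43 passed (6 higher, 3 lower), beside 3345 of 15681 (1130 higher, 2215 lower). TRIM21 then passed as higher and TRIM27 as lower, while TRIM44 and TRIM56 did not pass. The median of the 45 genes was 0.0975 with library size alone, 0.0305 after the length correction and 0.0274 with that and the block, beside medians over all genes of 0.04, -0.01 and -0.01. That of the interferon list was 0.14 with library size alone and 0.14 with log2 FPKM plus 0.1.

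Some named genes near 0 changed sign. TRIM25 had -0.0169 after the length correction and -0.0162 with the block added, and TRIM69 -0.0327 and -0.0318. TRIM32 had 0.0143 with library size alone, 0.00823 with log2 FPKM plus 1, filtered or not (0.00823), and 0.00933 with 0.1 added, and TRIM5 had 0.0289, 0.0227 (0.0227) and 0.0309. With single libraries left out TRIM8 ranged from -0.0198 to 0.0758, TRIM32 from -0.0837 to 0.00499, TRIM13 from -0.116 to 0.0114, TRIM5 from -0.0807 to 0.0582 and TRIM69 from -0.00546 to 0.0529. The cause was not tested. TRIM7, TRIM9, TRIM54 and TRIM63 had 107 to 177 reads in all, which limits their precision.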
